A study of Homo sapiens with 4 samples.

Results

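The nuclear-encoded subunits of the mitochondrial respiratory chain are described here complex by complex, in U87-MG glioblastoma cells depleted of MAGED2. Members were the genes whose symbols match NDUFA, NDUFB, NDUFC, NDUFS or NDUFV with a number, SDHA to SDHD, any symbol starting with UQCR, COX4 to COX8 or ATP5, and CYC1 and CYCS. This rule uses names only, and it selected 89 of the 23444 gene entries of the table. Of these 89, 81 had enough counts to be tested, among 15293 genes tested in all. Complex I held 36 members, complex II 4, complex III 10, cytochrome c 1, complex IV 18 and complex V 20, with NDUFA4 placed in complex IV, where its protein is found.

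RNA was sequenced from U87-MG, an established human glioblastoma line, in 2 groups of 2 libraries. The shMAGED2 libraries came from cells with a short hairpin RNA against MAGED2, an X-linked gene of the melanoma antigen family, and the shCON libraries from cells with a negative control hairpin. The series design calls the knockdown stable, whereas the treatment protocol names scrambled hairpins and hairpins against another gene, ZDHHC15, given by transient transfection with harvest at 36 h. Both groups carry that protocol, nothing says that replicates came from separate cultures, and p-values therefore cover no more than the spread of these libraries, which could be technical.

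MAGED2 itself was at 17.9 and 21.7 CPM (counts over the TMM-scaled library size) in shMAGED2, against 175 and 178 CPM in shCON. Its log2 difference, shMAGED2 minus shCON, was -3.16 (SE 0.13), and it fell in edgeR's quasi-likelihood test with an adjusted p (Benjamini-Hochberg) of 0.000654. Total counts were 31160205 and 36234336 in shMAGED2 1 and 2, against 34235565 and 28673774 in shCON 1 and 2. The shMAGED2 libraries stood further apart from each other than the shCON libraries did, with a chi-square per degree of freedom of 79.6 for the shMAGED2 pair against 7.00 for the shCON pair. Mitochondrially encoded genes took 10.1% and 4.87% of all counts in shMAGED2 1 and 2, against 3.92% and 3.90% in shCON 1 and 2. VIM, a mesenchymal marker, was abundant at 7577 to 8802 CPM in shMAGED2 and 7628 to 7874 CPM in shCON, as was CD44 at 1015 to 1244 CPM in shMAGED2 and 883 to 887 CPM in shCON. GFAP was at 0.951 to 1.39 CPM in shMAGED2 and 2.26 to 3.04 CPM in shCON, SOX2 at or below 0.115 CPM and S100B at or below 0.401 CPM in all 4 libraries, so that the astrocytic markers of the lineage list were near absent. In the same test NES rose and OLIG2 fell. The 16 markers of other cell types summed to 39.4 to 48.6 CPM in shMAGED2 and 56.0 to 60.9 CPM in shCON. CDH1 and KRT5, epithelial markers, were among those at 0 in every library. Of the 9 tested, 0 rose and 2 fell, the fibroblast markers DCN and LUM, beside 12.3% and 11.6% of all genes tested. Both shMAGED2 libraries lay above both shCON libraries for 2 of the 9 and below both for 5 (33.0% and 33.0% of all genes). Log2 differences of the 9 ranged from -2.31 to 2.34. In bulk RNA, fewer cells of a type and less RNA per cell cannot be told apart.

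The respiratory chain passes electrons from NADH (complex I) and succinate (complex II) through coenzyme Q to complex III, by cytochrome c to complex IV, and finally to oxygen. Complexes I, III and IV pump protons across the inner mitochondrial membrane, and complex V, the ATP synthase, lets them flow back to make ATP. Most subunits are encoded in the nucleus and imported, while a small core of complexes I, III, IV and V is encoded by mitochondrial DNA, so that both genomes contribute to each of these enzymes. Nuclear respiratory factor 1 (NRF1) and GABPA (the DNA-binding subunit of nuclear respiratory factor 2) are known to bind many promoters of these nuclear genes.

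Promoter sequence was searched for both factors because the members are often described as sharing these regulators. RefSeq (GRCh38.p14) gave a promoter for 70 of the 89 members. In the 250 bases before the start, read on both strands, the NRF1 motif (GCGCA, any base, then GCGC) occurred in 15 of 70 member promoters (21.4%) and in 7.12% of 15843 protein-coding promoters. The GABPA motif CCGGAAG occurred in 17 of 70 (24.3%) and in 11.6% of all. The YY1 motif AAGATGGCG was found in 1 of 70 (1.43%) and 0.713% of all, and the ESRRA motif TCAAGGTCA in 0 of 70 and 0.196% of all. With the 50 bases after the start added, the YY1 motif was in 8 of 70 (11.4%) and 2.66% of all, the NRF1 motif in 17 of 70 (24.3%) and 7.95%, the GABPA motif in 20 of 70 (28.6%) and 13.8%, and the ESRRA motif in 1 of 70 (1.43%) and 0.221%. None of these 4 motifs contains another. Upstream stretches of 4 members are shown as examples of NRF1 and GABPA matches, with exon bases left out, the strand of the gene read 5′ to 3′ and motif matches in capitals. The stretch of NDUFB4 holds 2 NRF1 matches, that of NDUFB7 1 GABPA match, that of UQCR11 2 GABPA matches in opposite orientation and that of COX5B 1 GABPA match. Nearer the start, across or beyond the end of the stretch shown, NDUFB4 has 1 more NRF1 match, UQCR11 2 NRF1 matches and COX5B 1 more GABPA match.
NDUFB4 chr3:120596086-120596308, plus strand: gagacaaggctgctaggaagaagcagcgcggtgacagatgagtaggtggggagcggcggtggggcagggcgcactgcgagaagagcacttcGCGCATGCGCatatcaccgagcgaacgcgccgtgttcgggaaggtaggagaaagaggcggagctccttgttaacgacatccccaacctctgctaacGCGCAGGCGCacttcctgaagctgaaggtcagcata
NDUFB7 chr19:14572067-14572316, minus strand: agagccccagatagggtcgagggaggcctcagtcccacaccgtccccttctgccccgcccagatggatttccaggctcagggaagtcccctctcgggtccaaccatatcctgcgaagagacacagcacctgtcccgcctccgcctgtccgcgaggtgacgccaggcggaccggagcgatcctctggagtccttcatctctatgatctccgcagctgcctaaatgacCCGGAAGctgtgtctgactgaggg
UQCR11 chr19:1605491-1605712, minus strand: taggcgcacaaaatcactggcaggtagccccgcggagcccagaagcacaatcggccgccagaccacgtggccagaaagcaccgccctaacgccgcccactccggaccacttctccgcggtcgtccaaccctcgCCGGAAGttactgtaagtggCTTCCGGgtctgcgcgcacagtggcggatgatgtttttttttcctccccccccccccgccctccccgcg
COX5B chr2:97645812-97646039, plus strand: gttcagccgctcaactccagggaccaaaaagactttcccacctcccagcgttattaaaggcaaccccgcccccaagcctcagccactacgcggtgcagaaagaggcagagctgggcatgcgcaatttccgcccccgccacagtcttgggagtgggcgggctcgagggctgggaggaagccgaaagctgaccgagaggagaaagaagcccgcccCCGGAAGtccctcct

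Over the whole chain, few subunits passed the test in the comparison of shMAGED2 with shCON, and the shMAGED2 libraries differed from each other in most of them. Of 81 members tested, 6 rose and 0 fell in edgeR's quasi-likelihood test (threshold 0.05, p adjusted by Benjamini-Hochberg over all genes), whereas 23.9% of all genes tested were called, 12.3% as risen and 11.6% as fallen. At an unadjusted p under 0.05, 10 members were higher and 0 lower, and the share of all genes at that cut was not counted. DESeq2 called 8 members higher and 0 lower, and limma-voom 6 higher and 0 lower. Of all 15293 genes tested, DESeq2 called 2179 higher and 2086 lower, and limma-voom 1836 and 1820. These counts also stand beside the calls of both methods by complex below. The median log2 difference of the members was 0.04, beside 0.00 for all genes tested, and lay between -0.02 and 0.07 in the other settings with all 4 libraries. The 6 that rose were CYC1 in complex III, NDUFS5 in complex I, and ATP5MF, ATP5PF, ATP5IF1 and ATP5MC1 in complex V.

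Between the shMAGED2 libraries, 69 of the 81 members were higher in shMAGED2 2 than in shMAGED2 1, against 49.5% of all genes tested. The median log2 ratio of shMAGED2 2 over shMAGED2 1 was 0.41 for the members and -0.01 for all genes tested. Between the shCON libraries, 33 of 81 members were higher in shCON 2 than in shCON 1 (49.5% of all genes), with a median log2 ratio of -0.03. Regardless of sign, the median log2 distance between libraries was 0.43 in the shMAGED2 pair and 0.10 in the shCON pair for the members, beside 0.26 and 0.12 for all genes. Members together held 0.569% and 0.780% of all counts in shMAGED2 1 and 2, against 0.684% and 0.677% in shCON 1 and 2. The shMAGED2 libraries thus lay on either side of the shCON pair in their summed level.

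**Figure D1:**
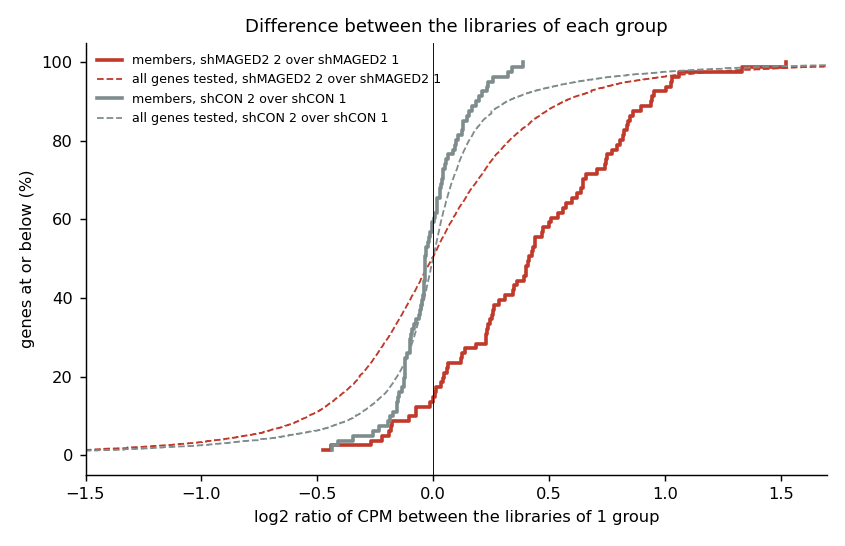
Cumulative share of genes (vertical axis, percent) by the log2 ratio of CPM between the libraries of 1 group (horizontal axis), for the 81 members (solid) and all 15293 genes tested (dashed), with the shMAGED2 pair in red and the shCON pair in grey. The solid red curve lies to the right of the others, with a median of 0.41, whereas the solid grey curve has a median of -0.03.

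Each shMAGED2 library was then set against the same pair of shCON libraries, so that these comparisons share their controls and are given side by side. The median log2 ratio of members to the shCON mean was -0.21 in shMAGED2 1 and 0.22 in shMAGED2 2, beside -0.01 and 0.00 for all genes tested. In a fit of shMAGED2 1 with both shCON libraries, 13 members rose and 34 fell, beside 24.7% and 24.7% of all genes (edgeR, adjusted p under 0.05). In the fit of shMAGED2 2, 42 rose and 1 fell, beside 22.3% and 21.7% of all genes. These fits assume that the lone shMAGED2 library would vary like the shCON pair, although the shMAGED2 pair varied more, so their calls describe a library and not the knockdown.

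By position, shMAGED2 1 lay below both shCON libraries for 49 members and above both for 22 (44.7% and 43.7% of all genes), and shMAGED2 2 below both for 6 and above both for 66 (42.8% and 43.9% of all genes). Of the 81 members, 40 (49.4%) had shMAGED2 1 below and shMAGED2 2 above both shCON libraries, against 7.06% of all genes tested. No member showed the opposite arrangement, which 6.12% of all genes had. Both shMAGED2 libraries lay above both shCON libraries for 20 members (24.7%, against 33.0% of all genes). They lay below both for 4 members (4.94%, against 33.0%), namely NDUFB11, COX4I1, COX5B and COX7A2L, and the remaining 17 members (21.0%, against 20.8%) had at least 1 shMAGED2 library between the shCON libraries. With mitochondrially encoded genes left out of the library sizes, 42 members were split in this way, against 7.48% of all genes. With library size alone 44 were split, against 9.55% of all genes. After each library's trend with transcript length and GC content was removed, 38 of 81 (46.9%) were split, against 6.95% of 13316 genes. The members' transcripts were short, with a median of 640 bases against 1074 for all genes tested, and 55 members were at most 750 bases long, of which 27 were split, against 9.38% of all genes of that length.

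**Figure D2:**
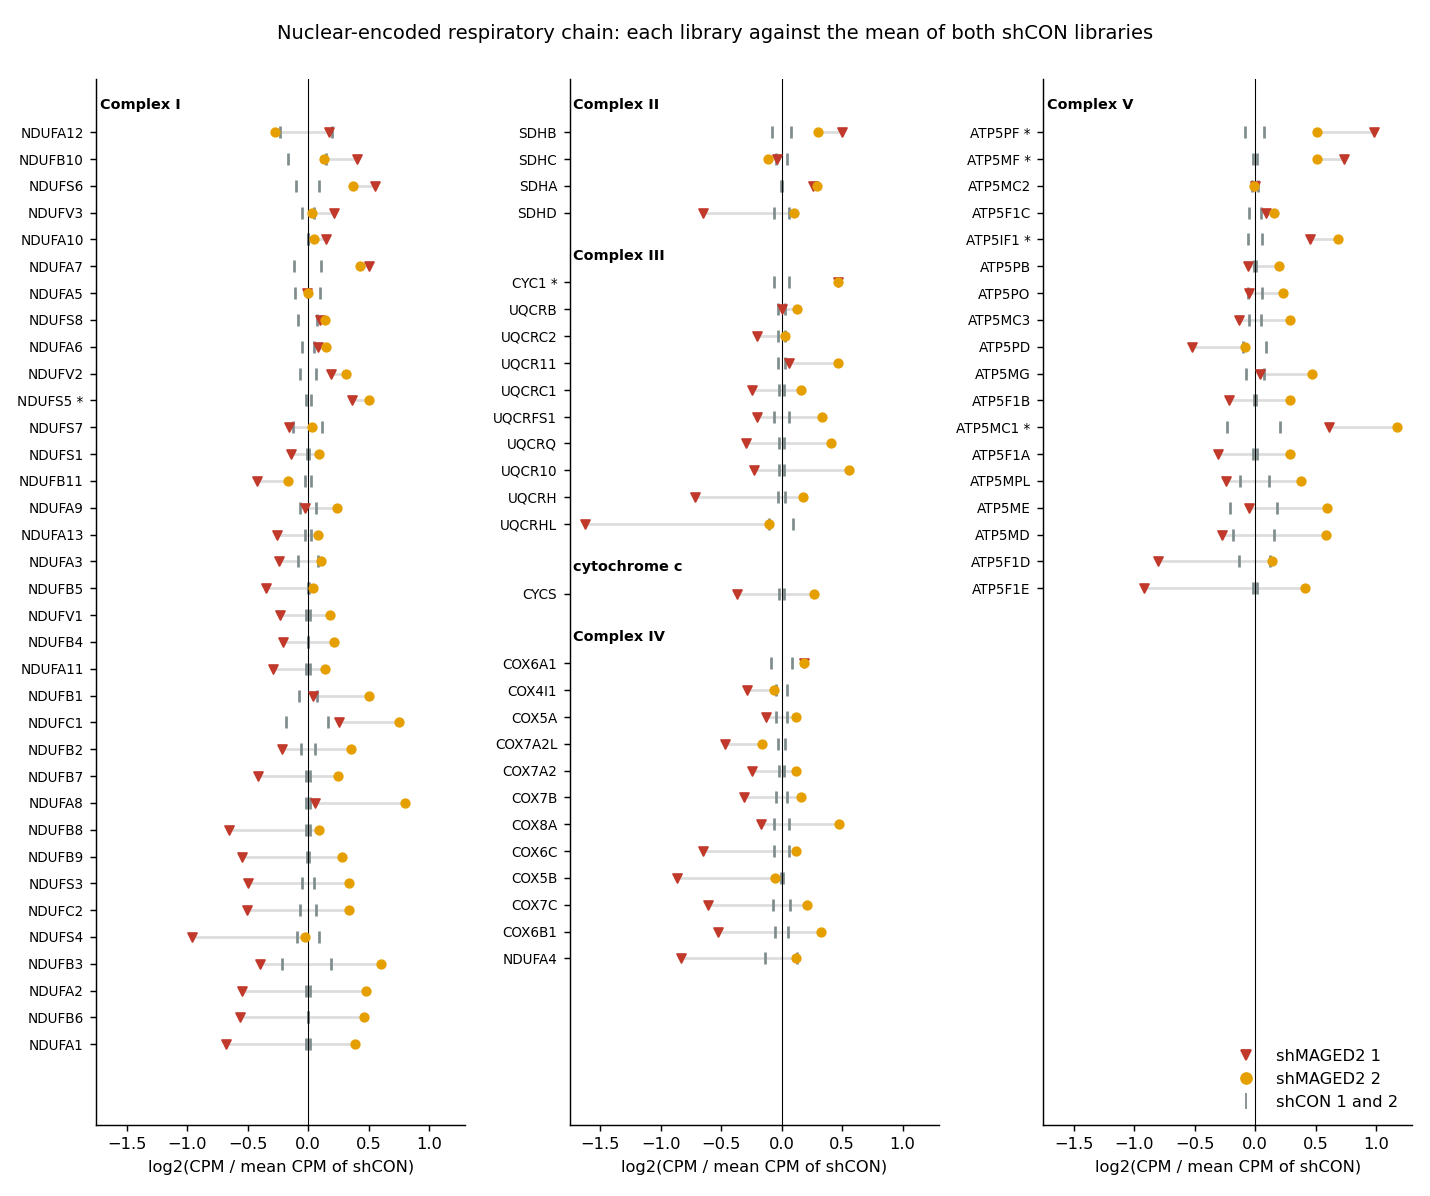
Log2 ratio of CPM to the mean of both shCON libraries (horizontal axis) for 80 of the 81 members tested, by complex, with shMAGED2 1 as red triangles, shMAGED2 2 as orange circles, the shCON libraries as grey ticks, and an asterisk for members past an adjusted p of 0.05. Within each complex members are ordered by the ratio of shMAGED2 2 over shMAGED2 1, and the triangle lies left of the circle for 68 of those drawn.

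Complex I oxidises NADH, and its nuclear-encoded core subunits carry the flavin and the iron-sulfur clusters. None of the 6 core subunits described here passed the test (edgeR adjusted p 0.135 to 0.966). NDUFV1, which binds NADH and the flavin, had 158 and 210.1 CPM in shMAGED2 1 and 2, against 188 and 184 CPM in shCON. NDUFS3, of the arm that passes electrons to coenzyme Q, had 32.1 and 57.3 CPM in shMAGED2, against 43.8 and 46.9 CPM in shCON. NDUFS1, the largest iron-sulfur subunit, had 159 and 186 CPM in shMAGED2, against 174 and 176 CPM in shCON. In all 3, shMAGED2 1 was the lowest of the 4 libraries and shMAGED2 2 the highest.

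NDUFV2 and NDUFS8 lay above both shCON libraries in each shMAGED2 library. NDUFV2, the small partner of NDUFV1, had 87.5 and 95.1 CPM in shMAGED2, against 73.2 and 79.9 CPM in shCON (log2 difference 0.26, SE 0.11). NDUFS8, an iron-sulfur subunit and the one of highest FPKM among the 6, had 120 and 124 CPM in shMAGED2, against 118 and 106 CPM in shCON. NDUFS7, the last relay to coenzyme Q, had 48.3 and 54.9 CPM in shMAGED2, against 58.2 and 49.4 CPM in shCON, with shMAGED2 2 inside the shCON range. The 6 thus held 3 members split across the shCON pair, 2 above it and 1 with a library between.

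Among the 29 accessory subunits of complex I, which surround the core and support its assembly and stability, 1 rose (3.45%) and 0 fell. Of all genes tested 12.3% rose and 11.6% fell. A further 2 of the 29 had an unadjusted p under 0.05, and DESeq2 called 1 of those 2. NDUFS5 (chromosome 1, 39026318 to 39034636, plus strand, hg38) had 45.3 and 49.9 CPM in shMAGED2, against 35.7 and 34.7 CPM in shCON. Both shMAGED2 libraries lay above both shCON libraries, and the log2 difference was 0.44 (SE 0.12, edgeR adjusted p = 0.0426). NDUFA7 (log2 difference 0.47, adjusted p = 0.0829) and NDUFS6 (log2 difference 0.47, adjusted p = 0.0639), the subunit that carries a zinc ion, had both shMAGED2 libraries above shCON without passing the edgeR test.

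Another 14 accessory subunits were split across the shCON pair. NDUFA1, an X-linked membrane subunit, had 6.11 and 12.7 CPM in shMAGED2, against 9.89 and 9.65 CPM in shCON. NDUFB6, of the distal part of the proton-pumping arm, had 22.5 and 45.9 CPM in shMAGED2, against 33.4 and 33.2 CPM in shCON. NDUFA2, at the tip of the peripheral arm, had 15.0 and 30.5 CPM in shMAGED2, against 22.1 and 21.7 CPM in shCON. In each of them the shCON libraries differed little, whereas the log2 ratio of shMAGED2 2 over shMAGED2 1 was 1.03 to 1.06. The others in this class were NDUFA3, NDUFA11, NDUFA13, NDUFB2, NDUFB3, NDUFB4, NDUFB5, NDUFB7, NDUFB8, NDUFB9 and NDUFC2. NDUFB4, with the NRF1 matches shown above, had 30.4 and 40.9 CPM in shMAGED2, against 35.1 and 35.2 CPM in shCON. NDUFB7, with the GABPA match shown above, had 28.5 and 45.0 CPM in shMAGED2, against 37.5 and 38.2 CPM in shCON.

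NDUFB11, an X-linked subunit of the membrane arm, was the member of complex I with both shMAGED2 libraries below both shCON libraries, at 28.5 and 34.0 CPM in shMAGED2, against 38.6 and 37.5 CPM in shCON (log2 difference -0.28, edgeR adjusted p = 0.180). NDUFS4, whose loss causes Leigh syndrome in patients, had 17.8 and 34.2 CPM in shMAGED2, against 32.5 and 36.9 CPM in shCON. Of its shMAGED2 libraries, shMAGED2 1 alone lay outside the shCON range. NDUFA8 had 49.5 and 82.7 CPM in shMAGED2, against 46.8 and 48.1 CPM in shCON, with shMAGED2 2 well above the other libraries. NDUFA6, NDUFA10 and NDUFC1 also had both shMAGED2 libraries above shCON (edgeR adjusted p 0.163 to 0.607), and NDUFA5, NDUFA9, NDUFA12, NDUFB1, NDUFB10 and NDUFV3 had at least 1 shMAGED2 library between the shCON libraries. Over complex I, the median log2 ratio to shCON was -0.18 in shMAGED2 1 and 0.20 in shMAGED2 2.

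Complex II oxidises succinate and is the only complex of the chain without a mitochondrially encoded subunit. Of its 4 subunits 0 passed the edgeR test, beside 23.9% of all genes tested. At an unadjusted p under 0.05, 2 were higher and 0 lower, and DESeq2 called 1 higher while limma-voom called 0. SDHB, the iron-sulfur subunit, had 107 and 93.5 CPM in shMAGED2, against 71.8 and 79.8 CPM in shCON. The log2 difference was 0.40 (SE 0.12, edgeR adjusted p = 0.0540), and the groups did not overlap. SDHA, the flavoprotein that binds succinate, had 149 and 153 CPM in shMAGED2, against 124 and 126 CPM in shCON (log2 difference 0.27, SE 0.09, adjusted p = 0.0717), again without overlap. Such a lack of overlap was common, with both shMAGED2 libraries above both shCON libraries in 33.0% of all genes and below both in 33.0%. Pseudogene copies of SDHA exist, and the deposited counts do not say how their reads were assigned.

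The membrane anchors of complex II did not pass the test either. SDHC had 165 and 156 CPM in shMAGED2, against 164 and 174 CPM in shCON, so that 1 shMAGED2 library lay within the shCON range. SDHD had 33.1 and 55.7 CPM in shMAGED2, against 54.2 and 49.6 CPM in shCON. It was the member of complex II split across the shCON pair, with shMAGED2 1 the lowest library by far. The median log2 ratio of complex II to shCON was 0.11 in shMAGED2 1 and 0.20 in shMAGED2 2.

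In complex III, which moves electrons from coenzyme Q to cytochrome c, 1 of 10 members rose (10.0%) and 0 fell. Of all genes tested 12.3% rose and 11.6% fell. CYC1, the cytochrome c1 heme subunit (chromosome 8, 144095027 to 144097525, plus strand, hg38), had 155 and 155 CPM in shMAGED2, against 108 and 118 CPM in shCON. Its shMAGED2 libraries were nearly equal and both above shCON, with a log2 difference of 0.46 (SE 0.10, edgeR adjusted p = 0.0205), the smallest adjusted p among the members. UQCRFS1, the Rieske iron-sulfur protein, had 77.9 and 113 CPM in shMAGED2, against 93.3 and 85.7 CPM in shCON. UQCRB, a small subunit near the coenzyme Q site, had 82.5 and 90.1 CPM in shMAGED2, against 84.0 and 80.6 CPM in shCON. UQCRFS1 was split across the shCON pair, and UQCRB had shMAGED2 1 inside the shCON range.

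The core proteins UQCRC1 and UQCRC2, which are related to mitochondrial processing peptidases, were split as well. UQCRC1 had 206 and 272 CPM in shMAGED2, against 241 and 248 CPM in shCON, and UQCRC2 183 and 216 CPM in shMAGED2, against 207 and 215.0 CPM in shCON. For UQCRC2, shMAGED2 2 exceeded the higher shCON library by a small margin. UQCRH, the acidic hinge protein, had 49.0 and 91.2 CPM in shMAGED2, against 78.9 and 82.1 CPM in shCON. UQCRHL, a near-identical copy of UQCRH whose reads may be split with it, had 1.12 and 3.21 CPM in shMAGED2, against 3.21 and 3.68 CPM in shCON.

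UQCR10, UQCRQ and UQCR11 are the smallest subunits of complex III. UQCR10 had 25.4 and 44.0 CPM in shMAGED2, against 30.2 and 29.5 CPM in shCON. UQCRQ had 23.4 and 38.2 CPM in shMAGED2, against 29.2 and 28.4 CPM in shCON. Both were split, whereas UQCR11, with 30.5 and 40.3 CPM in shMAGED2 against 29.7 and 28.6 CPM in shCON, lay above both shCON libraries in each shMAGED2 library. The median log2 ratio of complex III to shCON was -0.22 in shMAGED2 1 and 0.26 in shMAGED2 2. CYCS, the mobile carrier cytochrome c, had 174 and 271 CPM in shMAGED2, against 228 and 222 CPM in shCON (log2 difference -0.02, SE 0.20, edgeR adjusted p = 0.966). Its libraries were split, at log2 ratios to shCON of -0.37 in shMAGED2 1 and 0.27 in shMAGED2 2.

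Complex IV, cytochrome c oxidase, was the complex with the lowest median, at a log2 difference of -0.10 (-0.25 on log2(FPKM + 1)). Of its 12 tested members 0 rose and 0 fell (edgeR), beside 12.3% and 11.6% of all genes tested. None had an unadjusted p under 0.05, and DESeq2 and limma-voom called 0. The median log2 ratio to shCON was -0.39 in shMAGED2 1 and 0.12 in shMAGED2 2. Of the 12, 11 lay below both shCON libraries in shMAGED2 1, a position that 44.7% of all genes had. COX4I1, the regulatory subunit that binds ATP, had 183 and 214 CPM in shMAGED2, against 230.1 and 217 CPM in shCON (adjusted p = 0.312). COX5B, a zinc-binding subunit on the matrix side, had 43.0 and 75.1 CPM in shMAGED2, against 78.7 and 77.8 CPM in shCON (adjusted p = 0.290). Both were below shCON in each shMAGED2 library, though shMAGED2 2 was close to the shCON range.

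COX7A2L, a relative of COX7A2 that acts in supercomplex assembly, had 93.5 and 116 CPM in shMAGED2, against 127 and 132 CPM in shCON (log2 difference -0.31, SE 0.13, edgeR adjusted p = 0.136). Its log2 ratio to shCON was -0.47 in shMAGED2 1 and -0.16 in shMAGED2 2. COX6A1 lay above shCON in each shMAGED2 library, with 114 and 114 CPM in shMAGED2, against 106 and 94.1 CPM in shCON (adjusted p = 0.242). NDUFA4, first described as a subunit of complex I, had 45.7 and 88.3 CPM in shMAGED2, against 88.6 and 74.0 CPM in shCON, and counting it under complex I moved the median of complex IV to -0.06. Of the others, COX5A, COX6B1, COX6C, COX7A2, COX7B, COX7C and COX8A were split. COX6B1 had 37.2 and 67.1 CPM in shMAGED2, against 55.4 and 51.7 CPM in shCON, and COX7C 48.0 and 84.8 CPM in shMAGED2, against 77.1 and 69.7 CPM in shCON.

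The isoforms of complex IV known from other tissues were barely detected. COX4I2 (lung), COX6A2 and COX7A1 (heart and skeletal muscle), and COX6B2, COX7B2 and COX8C (testis) had 0 to 4 counts per library in shMAGED2 and 0 to 6 counts in shCON, and none was tested. A count of 0 allows up to 0.102 and 0.0817 CPM in shMAGED2 1 and 2, against 0.0859 and 0.102 CPM in shCON 1 and 2 (limit of 3 counts, counting error only). The widely expressed isoforms COX4I1, COX6A1, COX6B1, COX7A2, COX7B and COX8A supplied the reads.

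Complex V held 4 of the 6 members that rose. Of its 18 tested members 4 rose (22.2%) and 0 fell, beside 12.3% and 11.6% of all genes tested. The median log2 difference was 0.10. ATP5PF, coupling factor 6 of the peripheral stalk (chromosome 21, 25716503 to 25735673, minus strand), had 93.7 and 67.5 CPM in shMAGED2, against 49.95 and 44.8 CPM in shCON. ATP5MF, subunit f of the membrane part (chromosome 7, 99448475 to 99466331, minus strand), had 36.4 and 31.2 CPM in shMAGED2, against 21.6 and 22.1 CPM in shCON. In both genes shMAGED2 1 was the highest library, unlike in most members. The log2 difference was 0.77 (SE 0.18, edgeR adjusted p = 0.0282) for ATP5PF and 0.63 (SE 0.14, adjusted p = 0.0244) for ATP5MF. ATP5PF overlaps JAM2 and GABPA on the opposite strand, and ATP5MF overlaps PTCD1 and the readthrough ATP5MF-PTCD1, so their counts are uncertain where strand and shared reads were not resolved.

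ATP5IF1, the inhibitor that binds the enzyme and blocks ATP hydrolysis (chromosome 1, 28236109 to 28246906, plus strand), had 39.0 and 45.9 CPM in shMAGED2, against 29.8 and 27.3 CPM in shCON. It rose by a log2 difference of 0.57 (SE 0.14, edgeR adjusted p = 0.0313). ATP5MC1, 1 of 3 genes for the proton-carrying subunit c (chromosome 17, 48892765 to 48895871, plus strand), had 36.0 and 53.0 CPM in shMAGED2, against 27.1 and 20.0 CPM in shCON. Its log2 difference of 0.92 (SE 0.24, adjusted p = 0.0391) was the highest of all members. ATP5MC2 and ATP5MC3 encode the same mature protein as ATP5MC1. ATP5MC2 had 113 and 112 CPM in shMAGED2, against 115 and 111.2 CPM in shCON, all 4 libraries within a narrow range, and ATP5MC3 had 138 and 184 CPM in shMAGED2, against 157 and 146 CPM in shCON, split across the shCON pair.

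The 5 subunits of the F1 head, where ATP is made, did not pass the test, and 4 of them were split. ATP5F1B, the catalytic beta subunit, had 625 and 889 CPM in shMAGED2, against 731 and 724 CPM in shCON. ATP5F1A, the alpha subunit, had 219.7 and 332 CPM in shMAGED2, against 275 and 269 CPM in shCON. ATP5F1E, the epsilon subunit, had 28.1 and 70.8 CPM in shMAGED2, against 52.7 and 54.0 CPM in shCON. In these 3 and in ATP5F1D, the delta subunit, shMAGED2 1 was the lowest library and shMAGED2 2 the highest, with log2 ratios to shCON of -0.22 to -0.92 in shMAGED2 1 and 0.14 to 0.41 in shMAGED2 2. ATP5F1C, the gamma subunit of the rotor, had 132 and 137 CPM in shMAGED2, against 128 and 119 CPM in shCON, above shCON in both.

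Of the other tested subunits of the stalk and membrane part, ATP5PB, ATP5MD and ATP5MPL were split, and ATP5PO, ATP5MG, ATP5ME and ATP5PD had a shMAGED2 library inside the shCON range. ATP5PB, the main protein of the peripheral stalk, had 284 and 339 CPM in shMAGED2, against 298 and 293 CPM in shCON. ATP5PD, which joins it, had 61.7 and 83.5 CPM in shMAGED2, against 94.2 and 82.7 CPM in shCON (log2 difference -0.28, edgeR adjusted p = 0.264). Complex V as a whole had a median log2 ratio to shCON of -0.06 in shMAGED2 1 and 0.33 in shMAGED2 2. The readthrough ATP5MF-PTCD1, with 0 counts in both shMAGED2 libraries and 1 and 39 counts in shCON 1 and 2, and ATP5MGL, with at most 3 counts in a library, were not tested.

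**Figure D3:**
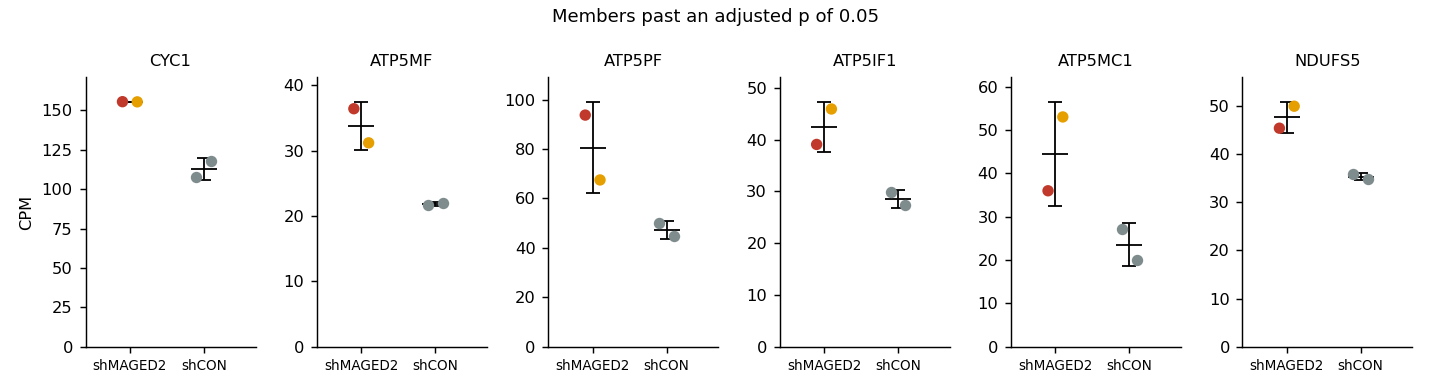
CPM in each library (points) with the mean and SD over 2 libraries for the 6 members past an adjusted p of 0.05, each on its own axis from 0, with shMAGED2 1 in red, shMAGED2 2 in orange and shCON in grey. The shMAGED2 points lie above the shCON points in every panel, and CYC1 has the closest shMAGED2 pair, at 155 and 155 CPM.

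The 6 calls did not hold with every library left out. In all 6, both shMAGED2 libraries lay above both shCON libraries. Leaving out 1 library could therefore hardly reverse a direction, and the other settings use the same 4 libraries. CYC1 averaged 155 ± 0.0766 CPM in shMAGED2 and 113 ± 7.14 CPM in shCON, ATP5PF 80.6 ± 18.5 in shMAGED2 and 47.4 ± 3.62 in shCON, and ATP5MC1 44.5 ± 12.0 in shMAGED2 and 23.6 ± 5.02 in shCON (SD, n = 2 each). All 6 lost their call without shCON 2, and all but ATP5MC1 without shCON 1 (edgeR, adjusted p above 0.05), while the direction held in all 17 alternatives. ATP5MF and ATP5PF were called in 15 of the 17, CYC1 and ATP5MC1 in 13, ATP5IF1 in 12 and NDUFS5 in 10.

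Levels between genes were compared on the deposited FPKM scale, which divides by gene length. The mean over all 4 libraries ranged from 1.24 FPKM for UQCRHL to 391 FPKM for ATP5F1B, with a median of 51.1 FPKM over the 81 tested members. ATP5F1B averaged 393 ± 115 FPKM in shMAGED2 and 389 ± 2.44 FPKM in shCON (SD, n = 2 each), so that its groups overlapped. COX4I1 followed at 261 ± 42.6 FPKM in shMAGED2 and 306 ± 14.5 FPKM in shCON, then COX6A1 at 188 ± 9.66 FPKM in shMAGED2 and 172 ± 14.7 FPKM in shCON. The neighbours COX4I1 and COX6A1 in this order differed beyond their spread in both groups, whereas COX6A1 and COX8A (170 ± 60.5 FPKM in shMAGED2 and 153 ± 9.15 FPKM in shCON) did not. By complex, the median level over all libraries was 86.8 FPKM in complex IV, 55.4 in complex V, 45.2 in complex II, 38.6 in complex III and 30.9 in complex I. NDUFA9, a complex I subunit at 53.5 to 65.9 CPM, was near the bottom at 6.88 FPKM, and SDHC of complex II, at 156 to 174 CPM, had 16.0 FPKM. The gene lengths behind the FPKM values are not given, so the order of complexes is that of this scale and may not be that of transcript numbers.

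**Figure D4:**
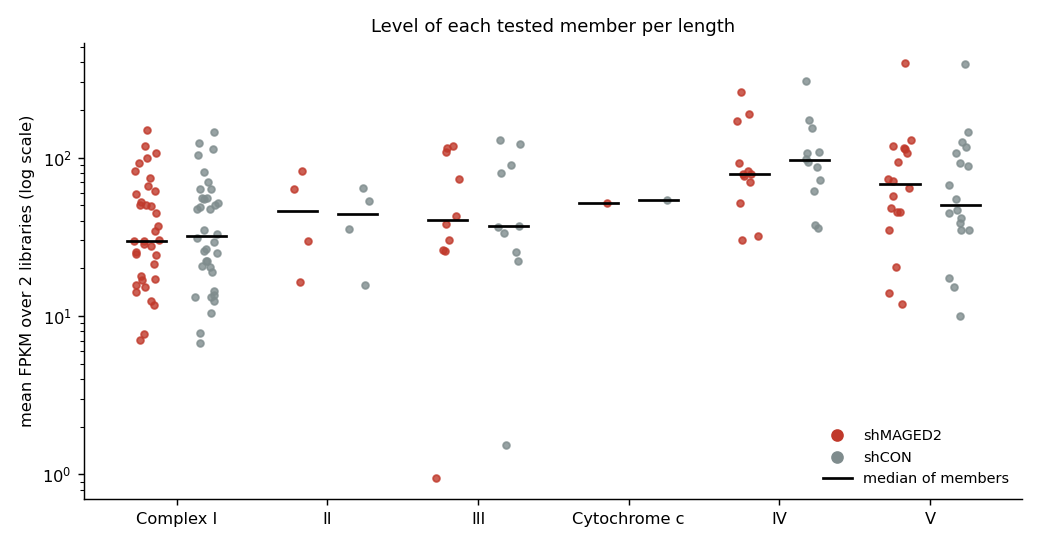
Mean FPKM of each tested member over the libraries of 1 group (log axis), by complex, with shMAGED2 in red left of shCON in grey and a bar for the median of the members. Complex IV has the highest median in both groups, and UQCRHL is the low point of complex III.

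The 13 subunits that mitochondrial DNA encodes for the same complexes had the reverse order of the shMAGED2 libraries. All 13 lay above both shCON libraries in both shMAGED2 libraries, with median log2 ratios to shCON of 1.60 in shMAGED2 1 and 0.48 in shMAGED2 2, and 13 of 13 were higher in shMAGED2 1 than in shMAGED2 2. Both shMAGED2 libraries lay above both shCON libraries in 33.0% of all genes tested. In the comparison of the groups 4 of the 13 rose (edgeR, adjusted p 0.0249 to 0.0437), which is 30.8%, against 12.3% of all genes tested. MT-CYB, cytochrome b of complex III, had 5652 and 2681 CPM in shMAGED2, against 1623 and 1555 CPM in shCON. MT-ATP6, the proton channel of complex V, had 11813 and 5634 CPM in shMAGED2, against 3794 and 3775 CPM in shCON. MT-ND3 and MT-ND6 of complex I were the others that rose, at log2 differences of 0.83 and 0.97. What this share of mitochondrially encoded RNA contributed to the split of the nuclear-encoded members was not tested beyond leaving those genes out of the library sizes, as given above.

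The other genes of the pathway were read from lists of assembly factors, regulators and neighbouring steps, of which 162 were tested. With the mitochondrially encoded subunits included, 21 rose (13.0%) and 3 fell (1.85%), beside 12.3% and 11.6% of all genes tested, which are also the shares to set beside each list that follows. The split position was found in 22 of the 162 (13.6%), against 49.4% of the members and 7.06% of all genes. It was found in 0 of the 13 mitochondrially encoded subunits and in 11 of 58 assembly factors (19.0%). By complex, the assembly factors ranged from 0 of 4 for complex II to 6 of 23 for complex IV and 2 of 6 for complex III. Of the 58, 46 were higher in shMAGED2 2 than in shMAGED2 1, against 69 of 81 members and 49.5% of all genes. Among 58 assembly factors 3 rose (5.17%) and 1 fell (1.72%), with median log2 ratios to shCON of 0.01 in shMAGED2 1 and 0.19 in shMAGED2 2. COX20, a chaperone that stabilises newly made MT-CO2, had 74.8 and 44.1 CPM in shMAGED2, against 14.3 and 12.9 CPM in shCON (log2 difference 2.13, edgeR adjusted p = 0.00445). COX20 was the highest riser of these lists. COA4 (log2 difference 0.73) and NDUFAF2 (0.49) rose as well, and COX19, a factor in copper delivery to complex IV, fell to 7.06 and 9.34 CPM in shMAGED2, against 14.6 and 15.9 CPM in shCON.

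In coenzyme Q synthesis 4 of 13 genes rose (30.8%, against 12.3% of all genes). PDSS1, which builds the isoprenoid tail, had 20.1 and 20.4 CPM in shMAGED2, against 6.74 and 6.17 CPM in shCON (log2 difference 1.65, edgeR adjusted p = 0.00208). COQ2, COQ4 and COQ9 rose by log2 differences of 0.70, 0.72 and 0.48. GPD2, the mitochondrial glycerol-3-phosphate dehydrogenase that feeds electrons to coenzyme Q, had 136 and 129 CPM in shMAGED2, against 72.7 and 79.6 CPM in shCON, and was 1 of 6 tested in its list to rise. In these 5 genes both shMAGED2 libraries lay above both shCON libraries, a position that 33.0% of all genes had.

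In the tricarboxylic acid cycle 1 of 14 genes rose (CS, citrate synthase, log2 difference 0.42). In pyruvate entry 1 of 12 rose and 1 fell. PDK3, a kinase that inhibits pyruvate dehydrogenase, had 16.4 and 14.7 CPM in shMAGED2, against 9.00 and 8.59 CPM in shCON, and MPC1, a subunit of the mitochondrial pyruvate carrier, fell to 11.0 and 9.12 CPM in shMAGED2, against 18.4 and 18.9 CPM in shCON. In ATP and phosphate exchange 2 of 8 rose, VDAC3 and the uncoupling protein UCP2. In mitochondrial import and the inner membrane 4 of 15 rose (26.7%), namely TOMM40, HSPD1, PHB and CHCHD3, and 1 fell, the matrix chaperone HSPA9, with 913 and 876 CPM in shMAGED2, against 1292 and 1266 CPM in shCON.

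Of 19 regulators of mitochondrial biogenesis 1 rose. Both shMAGED2 libraries lay above both shCON libraries for 9 of the 19 and below both for 4 (33.0% and 33.0% of all genes). PPRC1, a coactivator of the PGC-1 family, had 135 and 95.4 CPM in shMAGED2, against 68.0 and 74.9 CPM in shCON (log2 difference 0.69, edgeR adjusted p = 0.0393). PPARGC1A, which encodes PGC-1 alpha, had 51.0 and 37.1 CPM in shMAGED2, against 59.1 and 64.8 CPM in shCON (adjusted p = 0.0873). ESRRA, the estrogen-related receptor that it coactivates, had 45.2 and 85.6 CPM in shMAGED2, against 119 and 114 CPM in shCON (adjusted p = 0.0819). PPARGC1B was higher instead, with 37.1 and 34.6 CPM in shMAGED2, against 27.7 and 23.5 CPM in shCON (edgeR adjusted p = 0.0512). NRF1 (adjusted p = 0.286), GABPA (0.637) and YY1 (0.726) did not pass the test. Among members split across the shCON pair, the NRF1 motif was found in 7 of 33 promoters (21.2%) and the GABPA motif in 11 of 33 (33.3%), and among members above shCON in both libraries in 3 of 16 (18.8%) and 4 of 16 (25.0%). With the 50 bases after the start added, the YY1 motif was in 1 of 33 split promoters (3.03%) and in 4 of 16 above shCON (25.0%).

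**Figure D5:**
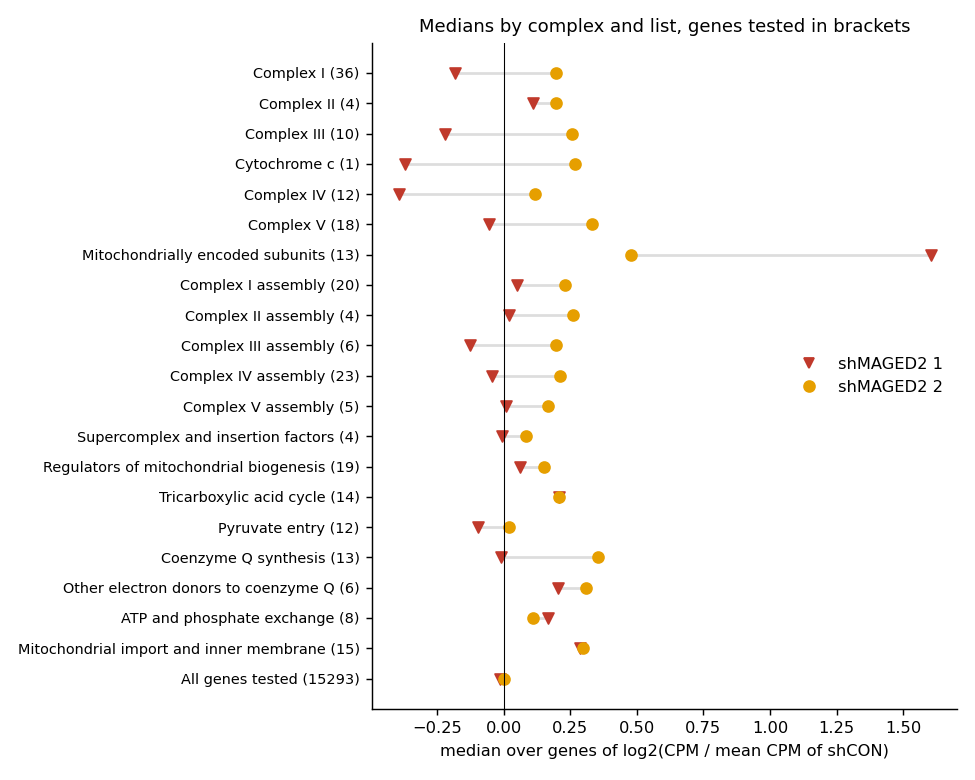
Median over genes of the log2 ratio of CPM to the mean of both shCON libraries (horizontal axis) for each complex, each other list of the pathway and all genes tested, with shMAGED2 1 as red triangles and shMAGED2 2 as orange circles and the number of genes tested in brackets. The mitochondrially encoded subunits, at 1.60 and 0.48, stand apart from the complexes, which lie between -0.39 and 0.11 in shMAGED2 1 and between 0.12 and 0.33 in shMAGED2 2.

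Some rows of the chain cannot be read on their own. A coding gene on the same strand overlapped 16 tested members and one on the opposite strand 20 more, and the strand setting of the counts was not stated. NDUFAB1, the acyl carrier protein that is a subunit of complex I but lies outside the naming rule, had 31.7 and 54.7 CPM in shMAGED2, against 35.6 and 34.4 CPM in shCON (edgeR adjusted p = 0.420). NDUFA4L2, a relative of NDUFA4 induced by hypoxia, fell at low counts, with 0.102 and 0.245 CPM in shMAGED2, against 0.888 and 1.43 CPM in shCON (log2 difference -2.68, adjusted p = 0.0436).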

How the data were processed

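The authors deposited whole-number counts per gene, not normalised, and FPKM values, per the file headers and values. The submitters' processing notes name hg38 and the authors' tools HISAT2, StringTie and SAMtools, with versions, annotation and strand setting not given in the sources used here. Both tables hold all 4 libraries, matched by the sample descriptions. Coordinates, lengths and overlaps come from GENCODE 29.

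Counts were tested in edgeR 4.0.16 (R 4.3.3): filterByExpr by group, TMM, robust quasi-likelihood fit with group as its only term, two-sided, Benjamini-Hochberg over 15293 genes, threshold 0.05. Residual degrees of freedom were 2, and biological variation (BCV) was 0.167. Standard errors derive from the F statistic. CPM are counts over the TMM-scaled library size. FPKM were used for levels and, with pseudocounts of 1 and 0.1 on the log2 scale, in limma 3.58.1 as alternatives, for genes of at least 1 FPKM in 2 libraries, a scale that understates changes of low genes. DESeq2 1.42.0, limma-voom, other scalings, filters of none and 5 CPM, a model without robust estimation, removal of length and GC trends (loess, span 0.3), and each library left out were also run. The edgeR step was tested on simulated counts with the same dispersion for all genes and both groups. It did not cover the unequal spread of the shMAGED2 and shCON pairs seen here.

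The members and lists were chosen with earlier results of these data known. Genes named were all members of complexes II and III and cytochrome c, up to 6 per direction with the smallest p and the 2 of highest FPKM in the others, core subunits, isoform sets, split members, untested members and up to 4 per direction in each other list. NDUFA7, NDUFS6, NDUFB11, NDUFS4, NDUFA8, the regulators that did not pass and the other members outside that rule were named after their values were seen. Same-numbered replicates did not deviate together (correlation -0.02), so numbers were not taken as pairs. A member of complex I is kept in the counts and medians but is not reported by name here. Intervals and count limits cover counting error only.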

Additional observations from a re-analysis of the deposited data

How the results depend on the processing

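The count of members that rose was 6 and ranged from 3 with library size alone and 2 in each FPKM fit to 8 with DESeq2. The replicate block gave 5, with NDUFS5 no longer called, and 0 members fell under any setting with all 4 libraries. Leaving out 1 library in turn gave 0 to 42 members that rose and 0 to 34 that fell. All genes that rose numbered 1874, 1244 on log2(FPKM + 0.1) and 573 to 3772 with 1 library left out, and those that fell 1775 and 542 to 3771. In the other pathway lists 21 genes rose, 11 in both FPKM fits and 2 to 65 with 1 library left out, and 3 fell, 5 with DESeq2 and 0 to 29 with 1 library left out. The median of complex II was 0.10, 0.039 with library size alone and 0.073 to 0.19 with 1 library left out. That of complex IV was -0.10, -0.25 and -0.26 in the FPKM fits with pseudocounts of 1 and 0.1, and -0.39 to 0.12 with 1 library left out. With 1 library left out the medians ranged from -0.18 to 0.20 for complex I, -0.22 to 0.26 for complex III and -0.06 to 0.33 for complex V, each negative without shMAGED2 2. In both FPKM fits the medians of complexes I (-0.04) and III (-0.05) were negative, and that of complex I also with upper-quartile factors (-0.01), library size alone (-0.02) and the replicate block (-0.01). Library size alone moved the median log2 ratio of shMAGED2 2 over shMAGED2 1 over all genes to 0.09, beside 0.52 for the members. With this scaling 73 of 81 members were higher in shMAGED2 2, against 60.3% of all genes. The median over all members was within 0.06 of 0 in each setting with all 4 libraries except the length and GC correction, and its sign changed with upper-quartile factors, library size alone and both FPKM fits. Between the fits without shMAGED2 1 and without shMAGED2 2, the log2 difference had opposite signs in all 40 split members and in 8 with a library between. For the 40 this follows from how split members were defined. The share of all genes called in opposite directions by both fits was not counted. For 15 split members that both fits called, the log2 difference is given next. In these 15 it ranged from -0.31 to 0.29 for ATP5F1A, -0.22 to 0.29 for ATP5F1B, -0.92 to 0.41 for ATP5F1E, -0.52 to 0.32 for COX6B1, -0.61 to 0.20 for COX7C, -0.37 to 0.27 for CYCS, -0.55 to 0.48 for NDUFA2, -0.57 to 0.46 for NDUFB6, -0.54 to 0.28 for NDUFB9, -0.50 to 0.34 for NDUFC2, -0.50 to 0.34 for NDUFS3, -0.23 to 0.17 for NDUFV1, -0.24 to 0.15 for UQCRC1, -0.20 to 0.33 for UQCRFS1 and -0.72 to 0.18 for UQCRH. Each of these fits has 3 libraries, and the cause of the other shifts was not tested. At 28673774 to 36234336 counts per library, members below about 10 CPM (NDUFA1, NDUFA3, NDUFB1, ATP5ME and UQCRHL) have the widest counting error.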
